A study of Saccharomyces cerevisiae with 12 samples.

Results

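The response of budding yeast to poacic acid was compared between cells that lack the MAP kinase gene SLT2 and wild-type cells. For each gene the change with the compound in slt2, minus the change with the compound in wild type, was taken on the log2(RPKM + 1) scale, where RPKM is the read count scaled to gene length and to the size of the library. This quantity is called the difference of responses, and it is positive where slt2 changed upward relative to wild type. All 12 libraries of the series entered, and 6222 of the 7126 genes in the deposited table were tested, namely those that read at least 1 RPKM in at least 3 libraries. The groups were slt2 grown with 100 µg/ml poacic acid for 1 h, slt2 without the compound, wild type with the same treatment and wild type without the compound. Each group had 3 libraries from separate biological samples. By the design text, each biological sample gave an untreated and a treated library. All groups are labelled BY4741, a haploid laboratory strain of mating type a in which LEU2, MET17 and URA3 are deleted and HIS3 is partly deleted, so cells of every group lack the sulfhydrylase that MET17 encodes. The labels give 1 deletion strain, and no strain with SLT2 restored was analysed here.

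Poacic acid is a plant-derived stilbenoid that binds the β-1,3-glucan of the yeast wall. Wall damage is sensed at the plasma membrane and passed through Rho1, protein kinase C and a MAP kinase cascade to Slt2, which acts on the transcription factor Rlm1 and on the G1/S factor SBF. The Rlm1 targets include wall proteins, wall-modifying enzymes and SLT2 itself. Other routes that respond to wall stress include calcineurin, a calcium-activated phosphatase that acts through Crz1, and the osmosensing Hog1 pathway.

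The libraries held 3462657 to 10542471 reads, so that 3 reads in a gene of 1 kb were worth 0.285 to 0.866 RPKM. SLT2 (YHR030C, R64 chrVIII:168890-170344, minus strand) read 0, 0.198 and 0.145 RPKM in treated slt2 and 0 in all 3 untreated slt2 libraries, against 193.6, 199.4 and 235.6 RPKM in treated and 42.1, 45.8 and 50 RPKM in untreated wild type. The 2 values above 0 in slt2 were 1 read each. LEU2 had no read in any library, MET17 had 1 read in 1 library and URA3 had 4 reads in 1 library. Of the α-cell genes, STE3 and MF(ALPHA)1 were near 0, while SAG1 read 6.79 to 11.9 RPKM and MF(ALPHA)2 read 4.96 to 11.1 RPKM with no gap between the strains. The lowest correlation within a group, across genes, was 0.954, between treated wild-type replicates 2 and 3; genes are not independent replicates. The share of reads in rRNA genes was 4.88 to 6.67% in slt2 libraries and 0.09 to 0.74% in untreated wild type. In treated wild type it was 2.67, 0.11 and 5.16% in replicates 1, 2 and 3, the last within the range of slt2. The share thus moved with the strain, and also between treated and untreated wild type and among the treated wild-type libraries. In cultures of mixed cells, fewer cells of a kind and less RNA per cell cannot be told apart.

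The response differed between the strains for 107 genes, 1.72% of those tested (limma, Benjamini-Hochberg adjusted p under 0.05). Of these, 45 (0.723%) were higher in slt2 and 62 (0.996%) were lower in slt2. By the design text each of the 6 biological samples gave an untreated and a treated library, a pairing that the main fit leaves out. With the samples as a block the count was 179, with 96 higher and 83 lower. The values do not bear out the sample numbers for every sample, as given with the processing below. With the share of rRNA genes in the summed RPKM (0.016 to 1.217%) as a covariate the count was 127, with 53 higher and 74 lower. The count also moved with single libraries, to 66 without treated slt2 replicate 2, 71 without untreated slt2 replicate 1, 70 without untreated wild-type replicate 1 and 164 without treated wild-type replicate 2. By itself the slt2 response passed for 526 genes (8.45%), and the wild-type response passed for 363 genes (5.83%). The median difference over all tested genes was 0.02, and 743 of the 6222 had a difference at an unadjusted limma p under 0.05. Counts of list members at that level below are to be read beside this share. Counts of list members that rose or fell are to be read beside the 8.45% in slt2 and 5.83% in wild type, which hold both directions. Counts of differences above or below 0 are to be read beside the median of 0.02, since their share over all tested genes was not counted. SLT2 is 1 of the 107, since a deleted gene cannot respond, and it is left out below.

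Each of the other 106 genes was placed by which of its responses passed the same threshold. The rise in wild type was lost in slt2 for 46 genes, and a fall in wild type was lost for 2. The response was reversed for 5 genes, passing in both strains with opposite signs. It was smaller in slt2 but of the same sign for 3 genes and larger for 6. A response passed in slt2 and not in wild type for 43 genes, of which 34 rose and 9 fell. YLR140W passed in neither strain by itself. A class says which tests were passed, so the sign and the range of the differences within it follow from how it was made.

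**Figure D1:**
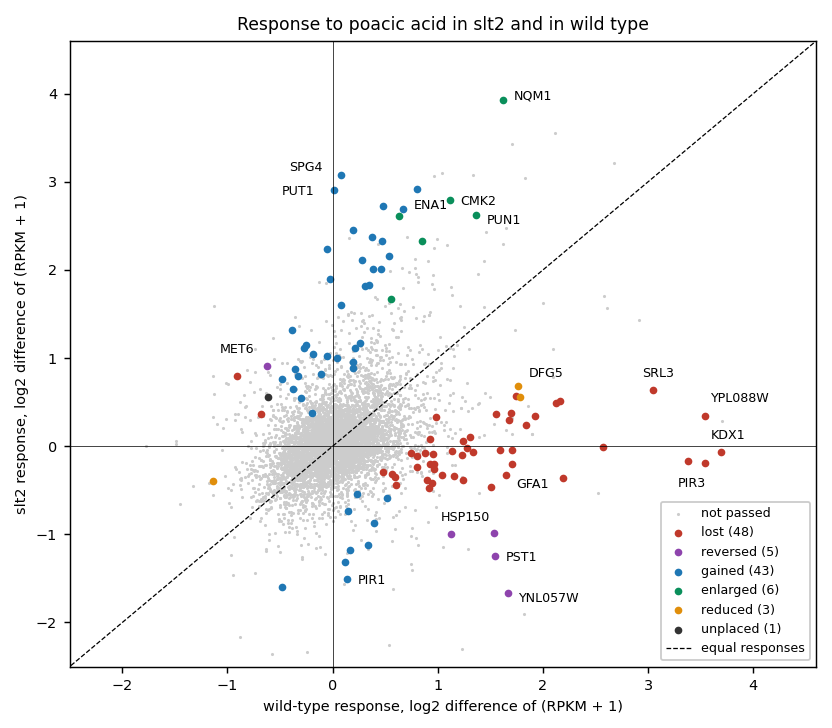
Response to poacic acid in slt2 (vertical) against the response in wild type (horizontal), both as log2 differences of (RPKM + 1), for the tested genes other than SLT2; the dashed line marks equal responses. The 46 lost rises lie along the horizontal axis at wild-type responses of 0.48 to 3.70, while the 34 gained rises stand above it near a wild-type response of 0.

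The lost rises were led by KDX1 (YKL161C, chrXI:149386-150687, minus strand), a paralog of SLT2. KDX1 read 1.2, 2.44 and 2.10 RPKM in treated slt2 and 2.50, 1.99 and 1.59 RPKM in untreated slt2, against 65.5, 96.5 and 68.4 RPKM in treated and 5.54, 5.23 and 4.06 RPKM in untreated wild type. The 2 groups of slt2 overlapped, and every slt2 library lay below every wild-type library. Its difference was -3.77 ± 0.32 (log2, ± SE; adjusted p 3.33e-05), from a response of -0.07 in slt2 (95% interval -0.55 to 0.41) and 3.70 in wild type. PIR3 (YKL163W), a wall protein linked to β-1,3-glucan, read 2.39, 4.43 and 0.86 RPKM in treated and 2.31, 3.14 and 2.54 RPKM in untreated slt2, against 42.3, 30.7 and 72.1 RPKM in treated and 4.08, 2.38 and 4.19 RPKM in untreated wild type. Only the treated wild-type libraries were high, and the difference was -3.55 ± 0.52 (adjusted p 0.00218). SRL3 (YKR091W), a paralog of the G1 inhibitor WHI5, read 7.37, 6.24 and 13.3 RPKM in treated and 5.58, 3.93 and 6.15 RPKM in untreated slt2, against 112.5, 100.2 and 171.0 RPKM in treated and 13.3, 14.3 and 15.2 RPKM in untreated wild type. All treated slt2 libraries were above the untreated ones there, by 0.63 (95% interval 0.10 to 1.17), a response that did not pass (adjusted p 0.148) beside 3.04 in wild type.

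Among the 8 largest lost rises were also YPL088W, a putative aryl alcohol dehydrogenase, with 8.10 ± 3.1 RPKM in treated and 5.88 ± 1.1 RPKM in untreated slt2, against 91.0 ± 14 RPKM in treated and 6.87 ± 0.74 RPKM in untreated wild type (mean ± SD). YPL088W lies 814 bases from RLM1, and the 2 genes point away from each other. CRG1, a methyltransferase gene known from resistance to cantharidin, averaged 4.82 and 4.56 RPKM in treated and untreated slt2, against 56.7 and 8.53 RPKM in treated and untreated wild type. Its call was among the less stable ones, passing in 9 of the 12 fits that left out a library, with an adjusted p of 0.0545 without untreated wild-type replicate 1. YKL102C had at most 1 read in any slt2 library, against 46 to 76 reads in treated and 2 to 6 reads in untreated wild type. YMR103C averaged 11.5 RPKM in treated and 15.1 RPKM in untreated slt2, against 47.3 RPKM in treated and 10.7 RPKM in untreated wild type. It starts 155 bases beyond the end of YPK2 on the same strand, another lost rise (difference -1.59 ± 0.26), and transcripts that run from YPK2 into it were not tested.

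The 10 bases that Rlm1 binds, called the Rlm1 motif here, were looked for on both strands of the 500 bases before the start codon. They were found for 10 of the 46 lost rises (21.7%), for 2 of the 4 genes that reversed to a fall (50%), for none of the 34 gained rises, and for 105 of the 6196 tested genes with such a window (1.7%). A match is a description of the letters and not a measured binding site. The stretches below come from the R64 genome, read on the strand of the gene, with the match in capitals. They are shown as examples of the match before genes called lower in slt2: lost rises of wall, signalling and other genes, and the reversed PST1 and HSP150. They lie at chrXI:144111-144140 (PIR3, plus strand), chrIV:600303-600332 (SED1, plus strand), chrXVI:381439-381468 (RLM1, minus strand), chrIV:616480-616509 (AFR1, minus strand), chrVIII:519282-519311 (CRG1, plus strand), chrIV:563212-563241 (PST1, plus strand) and chrX:120216-120245 (HSP150, plus strand).
PIR3: gattagcaaaCTAATTATAGatcaaaggcc
SED1: gcatatatcgCTAAAATTAGccatcagaac
RLM1: gagatgaaagCTAATAATAGaaacagctcg
AFR1: ggaacagcgcCTAAAAATAGatgggcactc
CRG1: tttccacgatCTATATTTAGcattctaatt
PST1: ttacgagtctCTAAAAATAGcgtaggcaca
HSP150: acattttgagCTAAATTTAGattttggtca
The PIR3 match has the same 10 letters as that of KTR2, a mannosyltransferase gene, and the match of RLM1 has the letters of that of MCH5, a riboflavin transporter gene. KDX1, GFA1 and SRL3 have no match in this window.

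The rise was also lost in RLM1 itself and in a pair of protein phosphatase genes. RLM1 read 25.5, 22.9 and 24.8 RPKM in treated and 27.3, 24.5 and 19.2 RPKM in untreated slt2, against 72.4, 53.8 and 77.7 RPKM in treated and 27.3, 30.1 and 26.4 RPKM in untreated wild type. Treated wild type alone was high, and the response of slt2 was 0.06 (95% interval -0.28 to 0.39). MSG5, which encodes a phosphatase that inactivates Slt2, averaged 22.7 ± 1.8 and 23.6 ± 2.9 RPKM in treated and untreated slt2, against 56.9 ± 8.9 and 25.2 ± 0.30 RPKM in treated and untreated wild type. PPZ1, a phosphatase gene tied to salt tolerance, differed by -1.05 ± 0.22, and its call passed in 4 of the 12 fits that left out a library (highest adjusted p 0.0779, without untreated wild-type replicate 1). These were the only calls among the 26 listed genes of wall integrity signalling, whose median difference was -0.07. The upstream kinases, sensors and Rho1 regulators on the list did not pass, and 3 of the 26 were at an unadjusted p under 0.05. SSK22, a MAP kinase kinase kinase of the Hog1 pathway, was a lost rise too, with 7.09 and 9.22 RPKM in treated and untreated slt2, against 27.1 and 11.6 RPKM in treated and untreated wild type.

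Chitin, the polymer that yeast adds to a damaged wall, is built from UDP-N-acetylglucosamine. GFA1 (YKL104C, chrXI:243220-245373, minus strand) encodes the first enzyme of that precursor route. It read 60.9, 60.3 and 68.7 RPKM in treated and 80.0, 76.9 and 82.4 RPKM in untreated slt2, against 415.7, 463.1 and 370.5 RPKM in treated and 119.4, 136.7 and 140.3 RPKM in untreated wild type. All treated slt2 libraries lay below the untreated ones, yet the slt2 response of -0.33 did not pass (adjusted p 0.0957). The difference was -1.98 ± 0.16 (adjusted p 3.33e-05). PCM1, the phosphoacetylglucosamine mutase of the same route, averaged 81.6 and 75.8 RPKM in treated and untreated slt2, against 239.8 and 96.0 RPKM in treated and untreated wild type. CHS7, which lets the chitin synthase Chs3 leave the endoplasmic reticulum, averaged 31.8 and 36.4 RPKM in treated and untreated slt2, against 85.1 and 42.9 RPKM in treated and untreated wild type. CHS3 itself averaged 42.3 and 40.1 RPKM in treated and untreated slt2, against 107.7 and 55.9 RPKM in treated and untreated wild type. The 4 genes span precursor, export and synthesis, and each passed in all 12 fits that left out a library. They were the called members of 16 chitin genes, of which 9 rose in wild type and 3 rose in slt2, with a median difference of -0.27.

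The wall proteins and the enzymes that join or trim wall polymers gave further losses. SED1 (YDR077W), an abundant GPI-anchored mannoprotein, read 507.1, 487.6 and 332.8 RPKM in treated and 363.6, 392.6 and 280.4 RPKM in untreated slt2, against 3038, 1787 and 2904 RPKM in treated and 674.7, 583.7 and 736.5 RPKM in untreated wild type. The slt2 groups overlapped, and all 6 slt2 libraries lay below the wild-type ones, also without the compound. Its call ended only without untreated slt2 replicate 1 (adjusted p 0.0501). CRH1, which links chitin to glucan, averaged 144.9 ± 13 and 112.0 ± 3.8 RPKM in treated and untreated slt2, against 447.3 ± 100 and 150.0 ± 13 RPKM in treated and untreated wild type. EXG1, the major exo-1,3-β-glucanase, averaged 180.4 and 211.4 RPKM in treated and untreated slt2, against 614.3 and 350.6 RPKM in treated and untreated wild type, and passed in 8 of the 12 fits (highest adjusted p 0.0626, without untreated slt2 replicate 2). KTR2 averaged 13.9 and 9.12 RPKM in treated and untreated slt2, against 33.9 and 9.25 RPKM in treated and untreated wild type. The KTR2 call did not pass with the biological samples as a block (adjusted p 0.0766), and without untreated slt2 replicate 1 its adjusted p was 0.112.

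**Figure D2:**
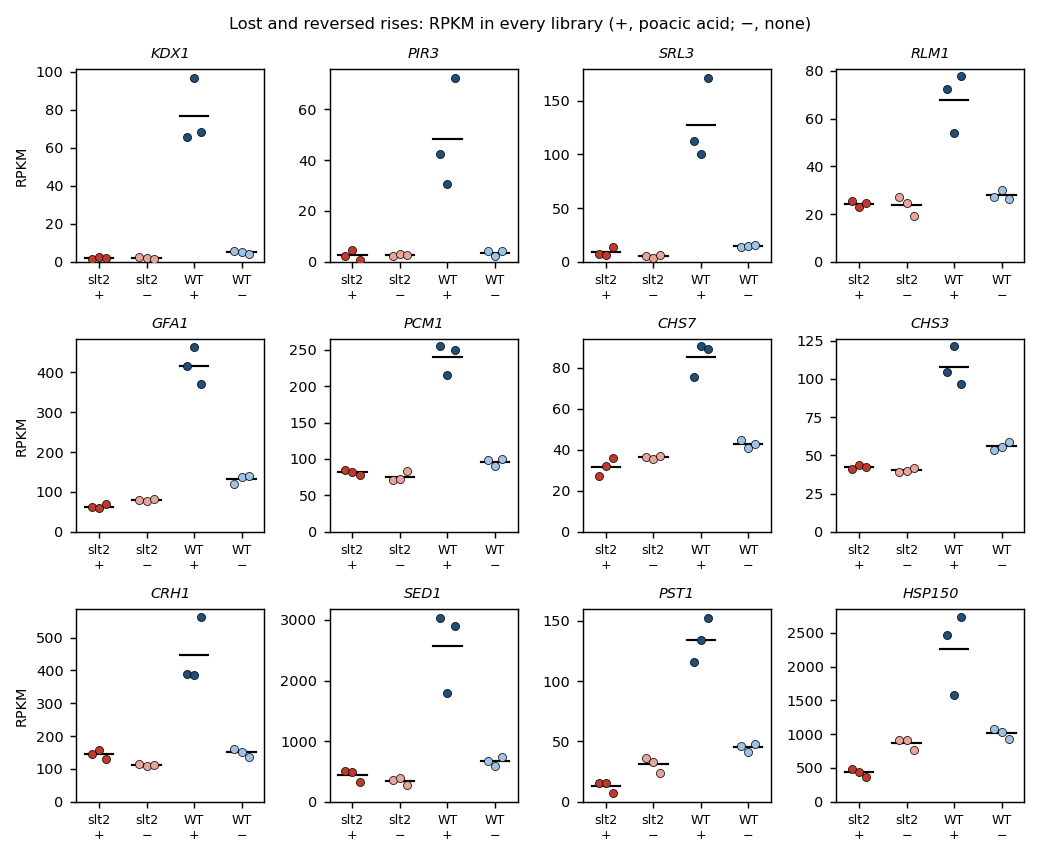
RPKM in every library (points; bars are group means, n = 3) of 10 lost rises and of PST1 and HSP150, with the groups in the order treated slt2, untreated slt2, treated wild type and untreated wild type; each vertical axis starts at 0. Treated wild type is the only high group for KDX1, PIR3 and RLM1, while PST1 and HSP150 are lowest in treated slt2.

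Over all 46 lost rises the slt2 response ran from -0.47 to 0.63 with a median of -0.08, and it was negative for 32 and positive for 14. In 19 of the 46 the 2 slt2 groups did not overlap, in either direction, a count not made over all tested genes. The wild-type response ran from 0.48 to 3.70 with a median of 1.26. The upper bound of the 95% interval of the slt2 response was below 1, a 2-fold change, for 44 of the 46. For 27 of them the call passed in all 12 fits that left out a library. Without the compound, 19 of the 46 had every slt2 library below every wild-type library, against 23.8% of all tested genes, and 4 had every slt2 library above, against 11.3% of all tested genes. The same untreated libraries enter the difference of responses. PRM5, a pheromone-regulated membrane protein gene, had one of the wider gaps without the compound, with 18.8 and 13.4 RPKM in treated and untreated slt2, against 161.1 and 34.8 RPKM in treated and untreated wild type. It passed in 4 of the 12 fits (highest adjusted p 0.0942, without untreated wild-type replicate 1).

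The other lost rises were AFR1 (pheromone receptor regulation), YKE4 (zinc transport), ASK10 (a regulator of the glycerol channel Fps1), RIM21 (pH sensing), SMF1 (manganese transport), MCH5, MPH3 (a maltose permease), DBF2 (a kinase of mitotic exit), POG1, SBE2, JEM1 (a chaperone of the endoplasmic reticulum), GYL1, TRS65, NDE1 (an external NADH dehydrogenase), YET3, PIN2, ADD37, YIL024C, YNR065C, YNR066C, YPL067C, YPR195C, YOL159C, YER077C and YML057C-A. Their differences lay between -1.97 for YIL024C and -0.65 for YET3. YNR065C and YNR066C lie 24 bases apart on 1 strand, and YIL024C and YKE4 lie 214 bases apart on 1 strand. YNR065C and YNR066C had responses of -0.20 and -0.05 in slt2, and of 1.71 each in wild type. YIL024C and YKE4 had responses of -0.46 and -0.04 in slt2, and of 1.5 and 1.59 in wild type. PIN2 and YML057C-A overlap another gene, so their values are uncertain.

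Opposite changes in the 2 strains passed for 5 genes, and in 4 of them slt2 fell while wild type rose. PST1 (YDR055W, chrIV:563527-564861, plus strand), a GPI-anchored wall protein, read 15.9, 15.4 and 7.56 RPKM in treated and 36.6, 33.0 and 23.9 RPKM in untreated slt2, against 115.9, 133.8 and 152.4 RPKM in treated and 46.2, 41.3 and 48.0 RPKM in untreated wild type. No 2 groups overlapped, with treated slt2 lowest and treated wild type highest. The response was -1.25 in slt2 (adjusted p 0.00453) and 1.54 in wild type (adjusted p 0.00124), and the difference was -2.79 ± 0.33 (adjusted p 0.000467). HSP150 (YJL159W), a glucan-linked protein of the PIR family, read 489.2, 442.0 and 370.9 RPKM in treated and 915.1, 917.1 and 761.4 RPKM in untreated slt2, against 2475, 1586 and 2733 RPKM in treated and 1077, 1032 and 928.6 RPKM in untreated wild type. Treated slt2 was again the lowest group, with a response of -1.0 beside 1.13 in wild type.

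YNL058C, a paralog of PRM5, averaged 11.7 ± 1.6 and 23.9 ± 1.1 RPKM in treated and untreated slt2, against 91.0 ± 6.5 and 31.2 ± 7.0 RPKM in treated and untreated wild type. YNL057W averaged 4.40 ± 0.83 and 16.0 ± 1.4 RPKM in treated and untreated slt2, against 44.4 ± 13 and 13.3 ± 3.9 RPKM in treated and untreated wild type. The 2 genes overlap by 311 bases on opposite strands, and whether reads were counted by strand is not given in the sources used here, so YNL057W is not a separate observation. MET6 (YER091C), the methionine synthase gene, turned the other way. It read 380.0, 426.0 and 305.1 RPKM in treated and 185.6, 182.7 and 219.8 RPKM in untreated slt2, against 136.0, 144.5 and 118.3 RPKM in treated and 218.2, 187.1 and 209.7 RPKM in untreated wild type. Treated slt2 was above and treated wild type below both untreated groups, and the difference was 1.53 ± 0.19 (adjusted p 0.00075). All 5 reversals passed in all 12 fits that left out a library.

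In 3 genes the response was smaller in slt2 but still passed. FLC2, a membrane protein gene linked to heme and calcium handling, averaged 47.9 and 32.2 RPKM in treated and untreated slt2, against 148.3 and 42.2 RPKM in treated and untreated wild type. DFG5, which helps to attach GPI proteins to the wall, averaged 64.5 and 39.9 RPKM in treated and untreated slt2, against 149.0 and 42.3 RPKM in treated and untreated wild type. OPT1, an oligopeptide transporter gene, fell in both strains, to 49.5 RPKM in treated slt2 against 65.6 RPKM in untreated slt2, and to 29.2 RPKM in treated wild type against 65.6 RPKM in untreated wild type. FLC2 passed in all 12 fits that left out a library, and DFG5 and OPT1 passed in 3 each, with adjusted p values of up to 0.101 for DFG5 (without untreated wild-type replicate 2) and 0.0976 for OPT1 (without untreated slt2 replicate 2).

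A fall that passed in wild type was lost in CIN5, a transcription factor gene of salt tolerance, and in the histone gene HTB1. CIN5 read 14.1, 16.6 and 16.1 RPKM in treated and 6.91, 8.75 and 10.3 RPKM in untreated slt2, against 7.84, 8.76 and 4.56 RPKM in treated and 9.84, 13.9 and 18.5 RPKM in untreated wild type. Treated slt2 lay above untreated slt2 without overlap, at a response of 0.79 that did not pass (adjusted p 0.0609). HTB1 averaged 267.7 and 206.5 RPKM in treated and untreated slt2, against 193.6 and 308.7 RPKM in treated and untreated wild type. CIN5 passed in 7 and HTB1 in 3 of the 12 fits that left out a library, with highest adjusted p values of 0.066 (without treated slt2 replicate 2) and 0.106 (without untreated wild-type replicate 1). The 10 histone genes had a median difference of 0.71, with 9 above 0 and HTB1 the only call, and with the biological samples as a block 5 were higher. Pairs of histone genes with near-identical sequence may share reads.

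The falls that passed in slt2 and not in wild type were led by PIR1 (YKL164C, chrXI:141794-142819, minus strand), the neighbour of PIR3 in the same gene family. PIR1 read 187.8, 176.2 and 162.6 RPKM in treated and 524.2, 484.6 and 492.6 RPKM in untreated slt2, against 625.7, 436.6 and 682.8 RPKM in treated and 514.8, 549.6 and 496.4 RPKM in untreated wild type. Treated slt2 lay below all other libraries, and the 2 wild-type groups overlapped. Its response was -1.51 in slt2 and 0.14 in wild type, for a difference of -1.64 ± 0.21 (adjusted p 0.000733). Thus the 3 called PIR genes took 3 forms, with a lost rise of PIR3, a reversal of HSP150 and a fall of PIR1 that passed in slt2 alone. CIS3, listed beside them among the wall mannoprotein genes, was not called by limma (difference -0.20, adjusted p 0.806).

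NIS1, whose product sits at the bud neck, averaged 28.3 ± 4.8 and 62.7 ± 9.0 RPKM in treated and untreated slt2, against 94.8 ± 13 and 74.5 ± 5.9 RPKM in treated and untreated wild type. PCL9, a cyclin gene of the kinase Pho85, averaged 6.80 and 16.7 RPKM in treated and untreated slt2, against 26.6 and 23.7 RPKM in treated and untreated wild type. SIC1, the inhibitor of B-type cyclin kinases, averaged 32.4 and 54.6 RPKM in treated and untreated slt2, against 65.2 and 58.9 RPKM in treated and untreated wild type. PCL9 and SIC1 were the calls among 15 listed genes of daughter cell separation and the end of mitosis, of which 12 fell in slt2 and 2 fell in wild type. All 15 differences were below 0, with a median of -0.69 beside 0.02 over all tested genes, and 9 were at an unadjusted p under 0.05. HO, the mating-type endonuclease gene, averaged 13.6 and 43.5 RPKM in treated and untreated slt2, against 36.0 and 50 RPKM in treated and untreated wild type, and its call did not pass with the biological samples as a block (adjusted p 0.0694).

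PHO3, the constitutive acid phosphatase gene, averaged 56.1 and 140.9 RPKM in treated and untreated slt2, against 77.7 and 74.1 RPKM in treated and untreated wild type. Its treated slt2 level was thus nearer to wild type than its untreated one. RAD55, a recombination gene, AIM20 and YJL195C completed the 9 falls. YJL195C overlaps the replication gene CDC6, and RAD55 did not pass with the block (adjusted p 0.0538). PIR1, NIS1 and PCL9 passed in all 12 fits that left out a library, and the other 6 passed in 2 to 10 of them.

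The rises that were larger in slt2 were led by NQM1 (YGR043C, chrVII:580435-581436, minus strand), a transaldolase gene of stationary and stressed cells. NQM1 read 114.0, 104.3 and 84.0 RPKM in treated and 8.38, 7.92 and 2.48 RPKM in untreated slt2, against 6.58, 10.2 and 7.38 RPKM in treated and 2.46, 1.61 and 1.72 RPKM in untreated wild type. Both strains rose without overlap, by 3.93 in slt2 and 1.62 in wild type, and treated slt2 was far above the rest. The difference of 2.31 ± 0.44 (adjusted p 0.0163) did not pass with a pseudocount of 0.1 RPKM, nor without untreated wild-type replicate 1 (adjusted p 0.0536). PUN1, a plasma membrane protein gene, averaged 219.9 and 35.1 RPKM in treated and untreated slt2, against 81.8 and 30.7 RPKM in treated and untreated wild type. It is a listed Slt2 and Rlm1 target and the only one of the 23 that was called higher in slt2. The PUN1 call passed in 6 of the 12 fits (highest adjusted p 0.0779, without treated slt2 replicate 2).

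Of the 10 listed calcineurin targets, 9 rose in slt2 and 4 rose in wild type. All 10 differences were above 0, with a median of 1.00, and 3 passed, or 7 with the biological samples as a block. CMK2 (YOL016C), a calmodulin-dependent kinase gene, read 198.6, 188.4 and 179.2 RPKM in treated and 29.3, 34.9 and 17.9 RPKM in untreated slt2, against 40.6, 43.3 and 43.9 RPKM in treated and 17.7, 18.8 and 21.0 RPKM in untreated wild type. Treated slt2 was above every other library, and the difference was 1.68 ± 0.26 (adjusted p 0.00325). RCN1 (YKL159C), a regulator of calcineurin, read 82.2, 84.9 and 67.5 RPKM in treated and 18.3, 17.8 and 14 RPKM in untreated slt2, against 19.9, 17.0 and 29 RPKM in treated and 14.9, 15.2 and 13.3 RPKM in untreated wild type. Its wild-type groups did not overlap, but the wild-type response of 0.54 did not pass (adjusted p 0.099), so RCN1 counts among the gained rises. ENA1, a sodium pump gene with near-identical tandem copies that may share its reads, averaged 336.2 ± 79 and 51.8 ± 15 RPKM in treated and untreated slt2, against 59.3 ± 5.1 and 36.8 ± 0.65 RPKM in treated and untreated wild type. CRZ1, the transcription factor gene itself, averaged 28.6 and 15 RPKM in treated and untreated slt2, against 16.7 and 17.2 RPKM in treated and untreated wild type. Its difference of 0.92 had an adjusted p of 0.0663, and of 0.0244 with the block.

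The core of the Crz1 site, GAGGCT, was found on either strand in the 500 bases before 4 of the 6 larger rises (66.7%), 6 of the 34 gained rises (17.6%), 9 of the 46 lost rises (19.6%) and 12% of all windows. These stretches show the matches nearest the start codon for 4 genes, with the match in capitals; it reads AGCCTC where it lies on the opposite strand. They lie at chrXV:296280-296309 (CMK2, minus strand), chrXI:154638-154667 (RCN1, minus strand), chrXV:1064893-1064922 (YOR385W, plus strand) and chrXII:954545-954574 (PUN1, minus strand).
CMK2: aagagaataattGAGGCTtatcttagaacc
RCN1: tgtaaggttcaaGAGGCTttgaattatgct
YOR385W: tgttcattcgtaAGCCTCttaatttttcaa
PUN1: gagaactgtcacAGCCTCccacttgaccct
CMK2, RCN1 and YOR385W hold a second match each. YOR385W, an uncharacterised gene, read 58.8, 66.8 and 64.1 RPKM in treated and 10.3, 8.71 and 9.50 RPKM in untreated slt2, against 14.7, 19.6 and 12.8 RPKM in treated and 9.35, 9.85 and 9.70 RPKM in untreated wild type. The untreated groups overlapped, treated slt2 was highest, and the difference was 1.98 ± 0.21 (adjusted p 0.000186).

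Sulfur assimilation gave the most calls in the direction of slt2 among the lists, which were chosen with earlier results of these data known. Of 28 genes, 11 were higher in slt2 and none was lower, 27 of the 28 differences were above 0, and the median was 0.62. In slt2, 16 of the 28 rose, and in wild type 3 rose and 1 fell. All groups lack MET17, which joins sulfide to O-acetylhomoserine. MET14 (YKL001C), the adenylylsulfate kinase gene, read 93.1, 82.0 and 78.1 RPKM in treated and 17.7, 24.7 and 18.7 RPKM in untreated slt2, against 25.9, 37.8 and 27 RPKM in treated and 22.3, 25.9 and 20 RPKM in untreated wild type. Treated slt2 was above all other libraries, with a difference of 1.62 ± 0.24 (adjusted p 0.00218). MET3, the ATP sulfurylase gene of the step before, averaged 52.3 and 15.8 RPKM in treated and untreated slt2, against 24.4 and 16.3 RPKM in treated and untreated wild type. MET10 and MET5, the subunits of sulfite reductase, differed by 1.23 ± 0.21 and 0.93 ± 0.21. Without the compound, every slt2 library of MET10 and of MET5 lay below every wild-type library. The untreated means were 17.2 against 20.5 RPKM for MET10 and 18.2 against 23.9 RPKM for MET5, so the lower start in slt2 enters these differences. MET2, homoserine acetyltransferase, differed by 0.91 ± 0.19, and STR3, cystathionine β-lyase, by 1.47 ± 0.29. MET2 and STR3 were the other way round without the compound, with every slt2 library above every wild-type library.

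MHT1 (YLL062C) and MMP1 stand next to each other, 342 bases apart and divergent, and encode the enzyme and the permease for S-methylmethionine. MHT1 read 16.5, 19.3 and 16.0 RPKM in treated and 6.55, 6.14 and 6.16 RPKM in untreated slt2, against 8.27, 8.76 and 9.31 RPKM in treated and 11.8, 12.5 and 11.1 RPKM in untreated wild type. The order of the strains turned over, since slt2 was lower without the compound and higher with it, with no overlap in either case. MMP1 averaged 37.2 and 23.5 RPKM in treated and untreated slt2, against 21.0 and 27.6 RPKM in treated and untreated wild type. SAM2, S-adenosylmethionine synthetase, differed by 1.25 ± 0.24 and the methionine permease gene MUP1 by 0.69 ± 0.16. For SAM2 and MUP1 too, every untreated slt2 library lay below every untreated wild-type library. Their untreated means were 120.4 against 155.4 RPKM and 92.3 against 109.1 RPKM. With MET6, these genes span uptake, reduction of sulfate and the methyl cycle. The MUP1 call did not pass with the block (adjusted p 0.0591), and those of STR3, MET2, MET5, SAM2, MMP1 and MUP1 each ended in at least 1 fit that left out a library, with highest adjusted p values of 0.0502 (SAM2, without untreated wild-type replicate 1) to 0.118 (MUP1, without treated slt2 replicate 2).

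The core of the site of Met31 and Met32, TGTGGC, which reads GCCACA on the opposite strand, was found before 12 of the 34 gained rises (35.3%), 3 of the 6 larger rises (50%), 4 of the 46 lost rises (8.7%) and 14.4% of all windows. The E-box bound by Cbf1, CACGTG, was found before 8 gained rises (23.5%), 3 lost rises (6.5%) and 6.1% of all windows. MHT1 and MMP1 share their matches, since their windows overlap. The stretches show both kinds of match, in capitals, for MET14 and MET10, and 1 match of the Met31 and Met32 core for MET3 and MHT1. MET3 also holds E-box matches, and MHT1 holds none. They lie at chrXI:439560-439589 (MET14, minus strand, TGTGGC), chrXI:439596-439625 (MET14, minus strand, CACGTG), chrVI:213095-213124 (MET10, plus strand, TGTGGC), chrVI:213069-213098 (MET10, plus strand, CACGTG), chrX:455973-456002 (MET3, plus strand, GCCACA) and chrXII:17747-17776 (MHT1, minus strand, TGTGGC).
MET14: cacctcaaaaaaTGTGGCaatggagaagag
MET14: tgccactaatttCACGTGatcaatatattt
MET10: tcaccccacaggTGTGGCttttttggtgcc
MET10: agcttatagaagCACGTGaccacaattcac
MET3: ccgtataacaaaGCCACAgttttacaactt
MHT1: gtactaccaaatTGTGGCgaggtattcaat
The other motifs searched were STRE, CCCCT, bound by Msn2 and Msn4, before 5 of the 6 larger rises (83.3%), 3 of the 4 genes that reversed to a fall (75%), 47.1% of gained rises, 28.3% of lost rises and 33.9% of all windows; SCB, CACGAAA or CGCGAAA, bound by SBF, before 11.8% of gained rises, 8.7% of lost rises and 12.3% of all windows; and the heat shock element GAANNTTC before 17.6% of gained rises, 13.0% of lost rises and 19.4% of all windows. Of the 182 matches before called genes, 2 pairs of matches to different motifs overlapped, before MCH5 and HO.

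**Figure D3:**
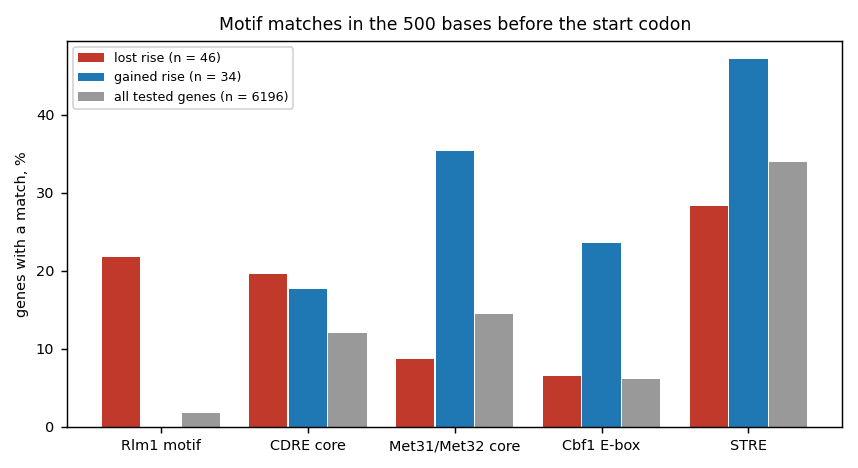
Percentage of genes with at least 1 match in the 500 bases before the start codon, for the 34 gained rises, the 46 lost rises and all 6196 tested genes with a window. The Rlm1 motif is found before 21.7% of lost rises and no gained rise, and the Met31 and Met32 core before 35.3% of gained and 8.7% of lost rises.

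Genes for poor nitrogen sources and for the breakdown of amino acids held some of the largest gained rises. PUT1 (YLR142W), proline oxidase, read 43.1, 52.1 and 29.1 RPKM in treated and 5.87, 5.77 and 2.61 RPKM in untreated slt2, against 2.95, 4.18 and 2.83 RPKM in treated and 3.32, 3.75 and 2.68 RPKM in untreated wild type. The wild-type groups overlapped at a response of 0.02, beside 2.90 in slt2, for a difference of 2.89 ± 0.39 (adjusted p 0.0011). ARO10 (YDR380W), the phenylpyruvate decarboxylase of the Ehrlich pathway, read 90.9, 105.5 and 82.0 RPKM in treated and 12.9, 10.1 and 17.3 RPKM in untreated slt2, against 20.9, 17.2 and 13.8 RPKM in treated and 11.9, 8.82 and 16.0 RPKM in untreated wild type. Here too treated slt2 alone was high. ARO9, the aminotransferase of the step before ARO10, averaged 99.8 and 26.2 RPKM in treated and untreated slt2, against 31.6 and 32.3 RPKM in treated and untreated wild type; it overlaps YHR137C-A.

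The general amino acid permease gene GAP1 and the urea amidolyase gene DUR1,2 differed by 1.53 ± 0.35 and 0.95 ± 0.19. GAP1 passed in 6 of the 12 fits that left out a library and DUR1,2 in 10, with highest adjusted p values of 0.117 (without untreated wild-type replicate 1) and 0.06 (without untreated slt2 replicate 1). With OPT1, whose fall was smaller in slt2, 6 of the 29 listed genes of poor nitrogen use were called, all higher in slt2. Of these 29 genes 12 rose and 1 fell in slt2, while 2 rose and 1 fell in wild type. The median difference was 0.46. Of 53 genes of amino acid biosynthesis, none was called by limma, 10 were at an unadjusted p under 0.05 and 46 had a difference above 0.

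There were 4 aldehyde dehydrogenase genes among the gained rises. ALD4, the mitochondrial enzyme, averaged 230.3 ± 43 and 44.7 ± 7.1 RPKM in treated and untreated slt2, against 42.2 ± 2.3 and 30.7 ± 6.9 RPKM in treated and untreated wild type. ALD6, the cytosolic enzyme, read 2221, 2121 and 1582 RPKM in treated and 845.8, 856.2 and 1016 RPKM in untreated slt2, against 816.2, 728.6 and 721.8 RPKM in treated and 1005, 842.7 and 898.6 RPKM in untreated wild type. The treated slt2 libraries of ALD6 were the highest of the 12 and the treated wild-type ones the lowest. ALD3, with a close copy next to it that may share its reads, differed by 1.55 ± 0.25, and ALD5 by 0.58 ± 0.13. The ALD5 call did not pass with the block (adjusted p 0.0577). PDC6, a minor pyruvate decarboxylase, averaged 11 ± 5.3 and 1.40 ± 0.58 RPKM in treated and untreated slt2, against 0.79 ± 0.18 and 0.866 ± 0.26 RPKM in treated and untreated wild type, and passed in 4 of the 12 fits (highest adjusted p 0.102, without treated slt2 replicate 2).

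**Figure D4:**
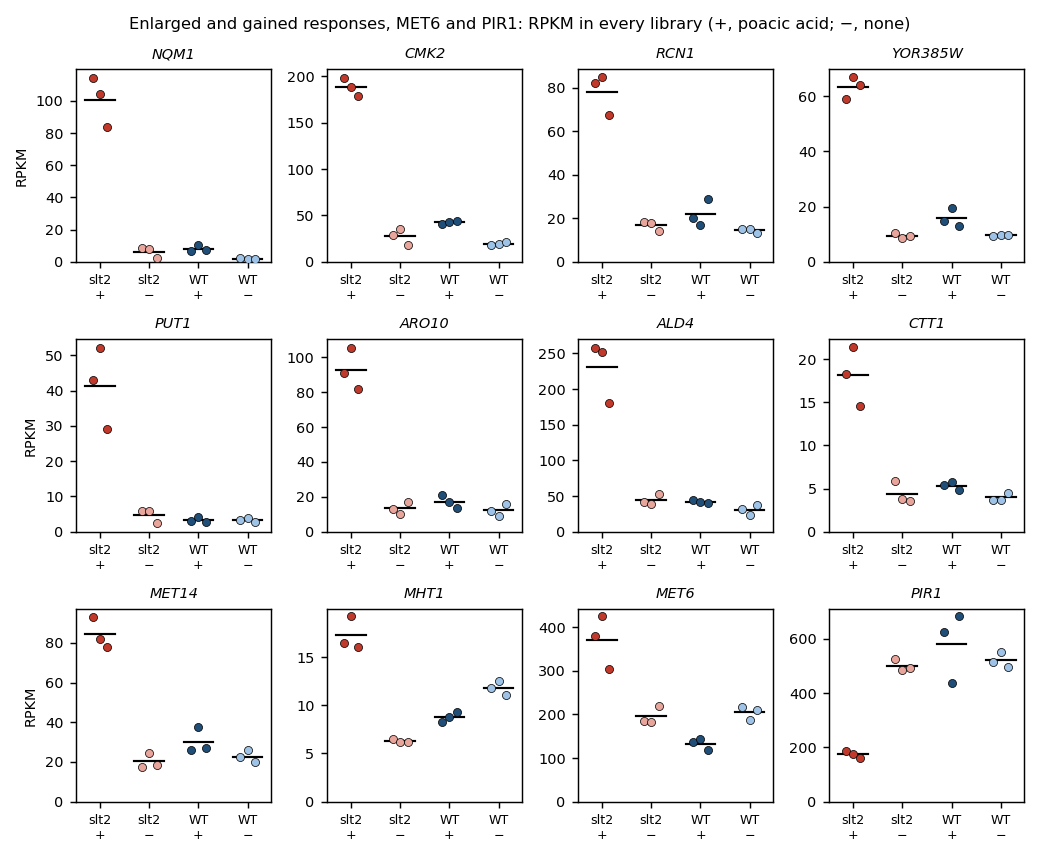
RPKM in every library (points; bars are group means, n = 3) of 10 larger or gained rises, of the reversed MET6 and of PIR1, with the groups in the order treated slt2, untreated slt2, treated wild type and untreated wild type; each vertical axis starts at 0. Treated slt2 is the highest group for every gene but PIR1, where it is the lowest, at 162.6 to 187.8 RPKM.

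The list of general stress genes held fewer calls than that of poor nitrogen use. Of 38 listed general stress genes 20 rose in slt2 and 3 rose in wild type, 32 differences were above 0 and 6 below with a median of 0.82, and 3 passed (SPG4, ALD3 and CTT1), or 7 with the block. SPG4, a stationary phase gene, had the largest fitted difference of the gained rises (2.99 ± 0.67) at low counts, with 15 to 89 reads in treated and 1 to 8 reads in untreated slt2, against at most 2 reads in any wild-type library. That fit rests on the pseudocount and did not pass with 0.1 RPKM, and without treated slt2 replicate 2 its adjusted p was 0.119. CTT1, the cytosolic catalase gene, read 18.3, 21.4 and 14.6 RPKM in treated and 5.86, 3.83 and 3.56 RPKM in untreated slt2, against 5.43, 5.73 and 4.79 RPKM in treated and 3.71, 3.71 and 4.54 RPKM in untreated wild type. Treated slt2 stood above all other libraries, and the call passed in 8 of the 12 fits (highest adjusted p 0.066, without treated slt2 replicate 2). Of 23 osmostress genes 13 rose in slt2 and 4 rose in wild type, and ENA1, NQM1, CTT1 and GRE2 were higher while YPK2 was lower in slt2, with 19 differences above 0, 4 below and a median of 0.63. GPD1, the glycerol-3-phosphate dehydrogenase gene, averaged 545.0 and 113.3 RPKM in treated and untreated slt2, against 234.8 and 111.5 RPKM in treated and untreated wild type. Its difference of 1.19 had an adjusted p of 0.0695, and of 0.00403 with the block.

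The remaining gained rises were FMP48 (difference 2.26 ± 0.40), PHM7 (2.11 ± 0.45), LEE1 (1.99 ± 0.41), AIM17 (1.84 ± 0.34), YBR085C-A, YOL014W, the glucose transporter gene HXT2 (1.23 ± 0.22), the respiratory subunit gene QCR8, UIP3, DLD3, GRE2 and the actin regulating kinase gene ARK1. FMP48 averaged 9.75 and 0.978 RPKM in treated and untreated slt2, against 1.58 and 1.32 RPKM in treated and untreated wild type. Over all 34 gained rises the slt2 response ran from 0.38 to 3.08 with a median of 1.46, and the wild-type response ran from -0.48 to 0.81 with a median of 0.08. In 17 of the 34 the 2 wild-type groups did not overlap, in either direction. ENA1, at a wild-type response of 0.67, and MHT1, at -0.39, were among them. A gained rise can thus hold a wild-type change that did not pass. The same count over all tested genes was not made. The calls of 14 of the 34 passed in all 12 fits that left out a library. Without the compound, 10 of the 34 had every slt2 library below every wild-type library, against 23.8% of all tested genes. In 2 of the 34 every slt2 library was above, against 11.3% of all tested genes. PHM7 and LEE1 passed in 5 and 4 of the 12 fits, with highest adjusted p values of 0.0961 and 0.0723, both without treated slt2 replicate 2. MET2 and GRE2 overlap another gene.

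The 23 listed Slt2 and Rlm1 targets gave the most calls in the direction of wild type, with 13 lower and 1 higher in slt2 and a median difference of -1.08. The lists were chosen with earlier results of these data known, so their ranking by calls is a description only. Of the 23, 22 rose in wild type, while 7 rose and 4 fell in slt2. The protease gene YPS1 rose in both strains, with 292.4 and 68.1 RPKM in treated and untreated slt2, against 147.2 and 52.6 RPKM in treated and untreated wild type, at a difference of 0.66 that did not pass (adjusted p 0.277). Of 36 wall mannoprotein genes 5 were lower (PST1, HSP150, PIR1, PIR3 and SED1), of 22 wall remodelling genes 3 were lower (CRH1, EXG1 and DFG5), and their medians were -0.26 and -0.29. None of 17 glucan synthesis genes was called by limma. Beside 743 of the 6222 tested genes, 5 of the 17 were at an unadjusted p under 0.05. Among those, GSC2, the stress-induced subunit of glucan synthase, averaged 108.9 and 19.3 RPKM in treated and untreated slt2, against 32.5 and 10.8 RPKM in treated and untreated wild type, a difference of 0.98 (adjusted p 0.0904). SKN1, a glucan synthesis gene, went the other way at -0.94 (adjusted p 0.0903, and 0.0213 with the block).

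**Figure D5:**
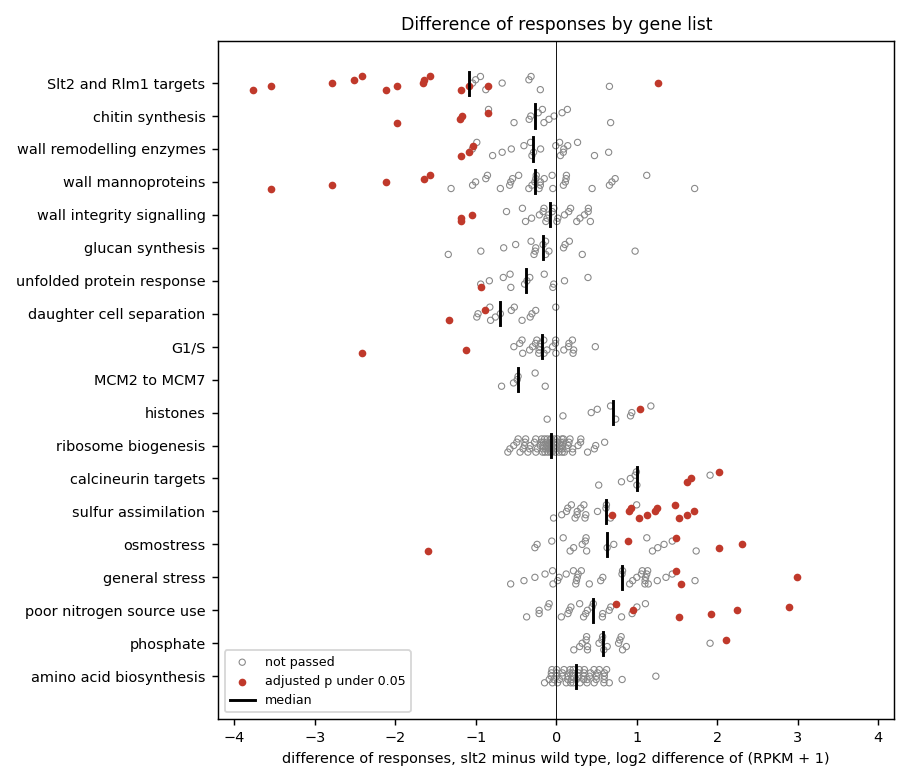
Difference of responses (slt2 minus wild type, log2 difference of (RPKM + 1)) of the tested members of 19 gene lists; filled points passed at an adjusted p under 0.05 and thick bars are list medians. Medians run from -1.08 for Slt2 and Rlm1 targets to 1.00 for calcineurin targets, beside 0.02 over all tested genes.

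The unfolded protein response list held 14 genes, of which 1 rose in slt2 and 9 rose in wild type. JEM1 alone was called, and 12 of the 14 differences were below 0, with a median of -0.38. KAR2, the main chaperone of the endoplasmic reticulum, averaged 443.8 and 397.3 RPKM in treated and untreated slt2, against 768.2 and 434.7 RPKM in treated and untreated wild type, at a difference of -0.66 (adjusted p 0.0869). Of 28 G1/S genes SRL3 and HO were lower (median -0.18). All 6 of the MCM2 to MCM7 helicase genes fell in slt2 and none fell in wild type, but no difference was called by limma, with 4 at an unadjusted p under 0.05 and a median of -0.48. Of 19 phosphate genes PHM7 was higher, or 4 genes with the block, and 1 of the 19 was at an unadjusted p under 0.05. All 19 differences were above 0 (median 0.58), with median responses of -0.06 in slt2 and -0.48 in wild type. The sodium-phosphate transporter gene PHO89, also a calcineurin target, averaged 605.4 and 176.1 RPKM in treated and untreated slt2, against 100.7 and 101.5 RPKM in treated and untreated wild type. Its difference of 1.91 did not pass (adjusted p 0.455) but passed with the block (adjusted p 0.00731).

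Other lists held few calls. PUN1 was the call of 16 eisosome and membrane compartment genes, CTT1 of 22 oxidative stress genes, NQM1 of 14 pentose phosphate genes and MSG5 of 26 mating genes, and their medians were 0.20, 0.18, 0.02 and 0.23. Of 47 respiration genes QCR8 was higher and NDE1 lower. No gene was called by limma among 22 heat shock chaperones (1 at an unadjusted p under 0.05), 19 drug resistance genes (4), 22 iron genes (2), 26 glucose-repressed genes (1), 22 genes of mitosis (7), 74 of ribosome biogenesis (5), 25 of ergosterol synthesis (4), 33 of the proteasome (0) and 138 ribosomal protein genes (3). Ribosome biogenesis genes fell in both strains, 31 of 74 in slt2 and 18 in wild type, with a median difference of -0.07.

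Of the 107 genes, 26 lay in 13 pairs with at most 1 gene between them. The pair of PIR1 and PIR3 holds a fall that passed in slt2 alone beside a lost rise, and KDX1 and RCN1, with 1 gene between, hold a lost rise beside a gained one. Just inside the threshold were UIP3 (adjusted p 0.0437) and YLR140W (0.0458), and just outside it were SPO12, YOL019W and STP2 (0.0516 each), with differences of -1.15, -0.83 and -0.80.

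With a pseudocount of 0.1 RPKM the calls of CRG1, YOL159C, NQM1, STR3, SPG4, PDC6, PHM7, GAP1, YOL014W and YLR140W did not pass. With the rRNA share of the summed RPKM as a covariate those of YOL159C, KTR2, HTB1, SPG4, UIP3, GRE2, YJL195C and YLR140W did not pass. The other 98 of the 106 did.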

How the data were processed

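RNA-seq libraries of rRNA-depleted RNA were made with a strand-specific kit, per the labels' protocols, and the build was R64, per the submitters' processing notes. The values are RPKM per gene, deposited by the authors with decimal commas and read here as decimal points. How reads were aligned and counted, and whether by strand, is not given in the sources used here. The labels' texts on growth and treatment give different lengths of incubation; the treatment time was used. Library totals were recovered from the values, which were whole reads within 1% for 99.545 to 99.811% of values under 50 reads.

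Log2(RPKM + 1) values were fitted with limma 3.58.1 in R 4.3.3 (intensity trend, robust variances), with 1 mean for each of the 4 groups over 12 libraries. The p values were adjusted by Benjamini-Hochberg over 6222 genes. Fold changes on this scale understate changes of low genes. Of genes past the threshold with a difference of at least 1 and 5 RPKM or more as the highest group mean, up to 8 per class and direction were given values, with the called members and up to 3 others of each list. The further list members and called genes given with values were picked with those values in view. The genes and lists were chosen with earlier results of these data known. By the design text each biological sample gave an untreated and a treated library, so the block fit is given; deviations of samples with the same number correlated at 0.034, 0.232 and 0.335 in slt2 and -0.136, 0.275 and -0.035 in wild type. Unlike numbers reached 0.186 in slt2 and 0.233 in wild type. In slt2, treated replicate 1 was closer to untreated replicate 2 (0.186) than to its own number (0.034). In wild type, treated replicate 1 was closer to untreated replicate 3 (0.233) and treated replicate 3 to untreated replicate 1 (0.227) than to their own numbers. The values thus do not bear out the numbers for 2 of 3 samples in wild type and for replicate 1 in slt2. The block results rest on the design text. Motifs were searched in the R64 genome.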

Additional observations from a re-analysis of the deposited data

Results flagged for a closer look

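The response to poacic acid differed between slt2 and wild type for 107 genes by the test of the difference itself. Of these, 5 genes (PST1, HSP150, YNL058C, YNL057W and MET6) passed in both strains in opposite directions.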

How the results depend on the processing

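Of the 106 genes, 53 passed in all 12 fits that left out a library and in the 11 other settings, 74 passed in those 11 settings, and no difference changed sign in any of the 23. The range over the fits that left out a library was 66 to 164 for genes called, 21 to 92 for higher and 39 to 72 for lower in slt2, 31 to 66 for lost, 20 to 72 for gained, 4 to 7 for reversed and 2 to 13 for reduced or enlarged responses, beside 107, 45, 62, 49, 43, 5 and 9 over all libraries, SLT2 included. Higher genes numbered 29 without treated slt2 replicate 1, 28 without untreated slt2 replicate 2 and 28 without untreated wild-type replicate 3, and lower genes 41 without untreated wild-type replicate 2. Library weights gave 289 called, 163 higher and 126 lower genes, with 80 lost, 148 gained, 19 reversed and 33 reduced or enlarged responses. The replicate block of the 6 biological samples gave 179 called and 96 higher genes, with 76 gained, 8 reversed and 24 reduced or enlarged responses, and of the 106 calls it ended 5, those of HO, RAD55, KTR2, MUP1 and ALD5. A replicate block by the number shared by both strains gave 104 called genes and ended 16 of the 106 calls, among them SIC1, QCR8, ARK1, GAP1 and YOL014W. Quantile normalization gave 10 reversed and 5 reduced or enlarged responses, median-ratio scaling 8 reversed, and limma without trend 93 called genes, 18 of the 106 calls ended and 5 reduced or enlarged. Quantile normalization ended 7 and median-ratio scaling 6 of the 106 calls. The cause was not tested. Counts of a few reads limit low genes such as SPG4 and YKL102C.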
